A study of Mus musculus with 2 samples.

Results

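Runx1-low endothelial cells of the yolk sac were compared by their level of *Gja5*, a connexin gene of arterial endothelium. The cells were PK44 cells, an endothelial population sorted as CD31+, positive for CD201, Kit and CD44 and negative for CD41, CD43 and CD45, from yolk sacs of untreated E10.0 mouse embryos on a C57BL/6 background. Members were selected on measured values in each cell, as CPM (counts of a gene scaled to 1000000 counts of that cell). Cells with 100 or more *Col1a1* counts were dropped, cells with *Runx1* under 100 CPM were kept, and these were called Gja5-high from 200 CPM of *Gja5* and Gja5-low under 200 CPM. This gave 51 of the 87 cells, 21 Gja5-high and 30 Gja5-low. Replicate 1 held 5 Gja5-high and 17 Gja5-low cells out of 43, and replicate 2 held 16 and 13 out of 44. The study sorted these cells to follow hemogenic endothelium, the endothelium that gives rise to blood. Both libraries were made by modified STRT-seq, in which a barcode marks each cell and unique molecular identifiers (UMIs) count transcripts, with 8932527 counts in replicate 1 and 12706360 in replicate 2.

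Endothelial cells of arteries and veins carry different gene programmes from early in development. In arterial cells, VEGF and Notch signalling, with the ligands Dll4 and Jag1 and the target genes of the Hey family, act together with Sox17 and ephrin-B2, while Nr2f2 and its partners mark veins. Runx1 is the transcription factor under which hemogenic endothelial cells turn into blood.

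The values that chose the cells are given as a description only. Summed over its cells, *Gja5* (chromosome 3, 96904693 to 97077416, plus strand in GRCm38) stood at 755 and 1971 CPM in Gja5-high against 10.6 and 53.1 CPM in Gja5-low cells, where here and in later sentences the value of replicate 1 precedes that of replicate 2. The highest Gja5-low cells had 58.3 and 146 CPM, and the lowest Gja5-high cells had 383 and 686 CPM, which left a gap on both sides of the limit of 200 CPM. Gja5-low did not mean without *Gja5*, since 11 of 17 such cells in replicate 1 and 13 of 13 in replicate 2 had a count. *Runx1* was kept under 100 CPM but was not equal in the groups. It stood at 0.86 and 4.63 CPM in Gja5-high against 33.2 and 35.5 CPM in Gja5-low cells. Its highest kept cell had 64.4 and 86.6 CPM and its lowest cell left out had 199.8 and 129 CPM, while all 21 Gja5-high cells lay under 20 CPM, as did 7 of 17 and 9 of 13 Gja5-low cells. The 3 cells dropped for *Col1a1* had 642 or more counts of it, and the highest cell not dropped had 31.

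**Figure D1:**
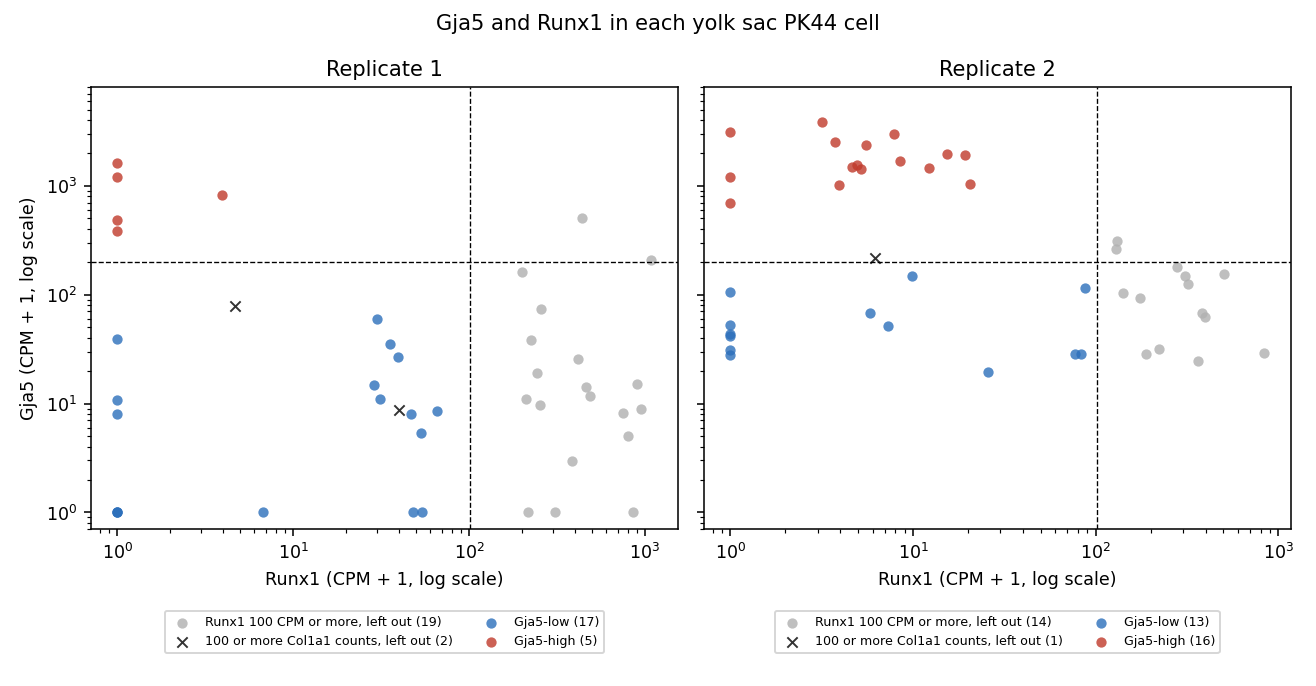
Each point is a cell, with Runx1 on the x axis and Gja5 on the y axis (CPM + 1, log scales) for replicate 1 (left) and replicate 2 (right); dashed lines mark the limits of 100 CPM of Runx1 and 200 CPM of Gja5. The Gja5-high cells (red, 5 and 16) and Gja5-low cells (blue, 17 and 13) were separated by a gap around the Gja5 limit in both libraries.

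Depth differed between the groups of replicate 1 more than between those of replicate 2. Gja5-high cells had a median of 291280 counts per cell in replicate 1 (range 31642 to 456431) and Gja5-low cells 87289 (13218 to 285167). In replicate 2 the medians were 182432 (51620 to 508245) and 208354 (78073 to 867456). The summed counts were 1162350 and 3455462 for Gja5-high and 1987074 and 3408735 for Gja5-low cells. Both sexes were among the cells of each group, as counts of *Xist* exceeded those of Y-linked genes in 1 of 5 and 6 of 16 Gja5-high cells and in 4 of 17 and 9 of 13 Gja5-low cells. The part of depth and sex in the results was not tested, apart from alternative fits that changed depth. In these, cells were thinned to 20000 counts, which left out 1 Gja5-low cell of replicate 1 with fewer counts, or the deepest cell of each sum was left out. In the Gja5-high cells of replicate 1 the genes detected ranged from 1941 to 5371. The libraries shared 0 cell names.

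Gja5-high cells had higher levels of several arterial genes (*Gja4*, *Efnb2*, *Hey1*), matrix genes (*Fn1*, *Col18a1*) and caveola genes (*Sdpr*) than Gja5-low cells of the same library. Of 9265 genes tested, 35 were higher in Gja5-high cells (0.378% of genes tested) and 1 was lower (0.0108%) at a Benjamini-Hochberg adjusted p under 0.05 in edgeR's quasi-likelihood test on the 4 sums, with the library as a term. At an unadjusted p under 0.05 there were 221 higher and 124 lower. The 35 called genes had log2 fold changes of 1.09 to 8.57 with a median of 3.18, beside -0.29 over all genes tested. In each library all 36 called genes had the direction of their call, which the call nearly requires. Across all genes tested the libraries had little in common, since 4714 of 9265 genes (50.9%) had the same direction in each and the log2 ratios of the libraries had a Spearman correlation of 0.0655, a description over genes, which are not independent replicates.

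**Figure D2:**
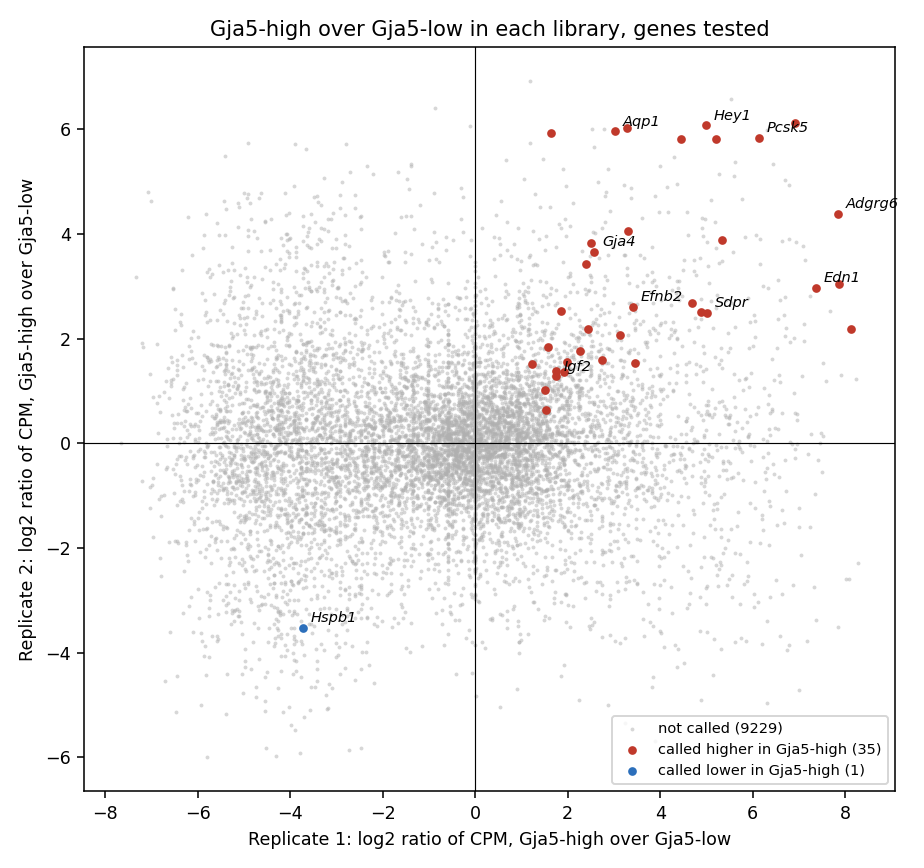
Each point is 1 of the 9265 genes tested, with the log2 ratio of CPM (Gja5-high over Gja5-low, pseudocount of 1 CPM) in replicate 1 on the x axis and in replicate 2 on the y axis. The 35 genes called higher (red) lie in the upper right and the 1 called lower (blue) in the lower left, while the other genes (grey) spread over all quadrants.

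These counts rested on 2 libraries with 1 residual degree of freedom, so the test took its spread from all genes together. A gene's p-value thus does not measure how far its own values differed between the libraries. The standard errors (SE) given below were computed from the log2 fold change and the statistic of that test, and hold the same shared spread. The labels do not say whether the libraries came from separate embryos or pools, so the p-values cannot be read as a spread between embryos. Without the library term edgeR called 12 genes higher and 0 lower, and with only cells under 20 CPM of *Runx1*, a limit chosen after seeing the data, 11 and 0. DESeq2 with the library as a term called 79 and 16, counts that may hold genes that do not differ, since in simulated data of such spread DESeq2 also called unchanged genes. In those data edgeR made no call, not even of changed genes. A gene or list without an edgeR call below is therefore not shown to be equal in the groups. For 22 of the 35 genes, 1 of the 5 cells gave more than 50% of the Gja5-high counts of replicate 1. With cells thinned to 20000 counts edgeR called 13 of the 35 genes, with *Gja4*, *Col18a1* and *Sdpr* among them and without *Efnb2*, *Hey1* and *Fn1*. *Gja4* and *Sdpr* were called in each of 12 other fits and 8 more that were chosen after seeing the data.

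The arterial label was held against arterial genes that the selection did not use. The genes and lists of this report were chosen with earlier results of these data known, so this is a description and not an independent check. Of 12 arterial markers, 11 had both Gja5-high sums above both Gja5-low sums, as 13.1% of all genes tested had. The exception was *Notch4*, at 4.30 and 133 against 52.3 and 61.3 CPM. *Gja4*, *Hey1*, *Efnb2* and *Sox17*, 4 of the 12, were called higher, beside 0.378% of all genes tested. The 12 markers together reached 3743 and 4141 CPM in Gja5-high and 926 and 601 CPM in Gja5-low cells. Of 6 general endothelial markers 5 also had both Gja5-high sums above both Gja5-low sums, with 0 called, as had 14 of 30 genes of the longer endothelial list, so this trait was not limited to arterial genes. Both groups were endothelial, as *Pecam1*, *Cdh5*, *Kdr*, *Tek*, *Tie1* and *Eng* together stood at 4868 and 4084 CPM in Gja5-high and 2131 and 3133 CPM in Gja5-low cells.

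*Gja4*, which encodes a connexin that forms gap junctions with that of *Gja5* (chromosome 4, 127311421 to 127314039, minus strand), had 939 and 1456 CPM in Gja5-high against 169 and 116 CPM in Gja5-low cells. Its lowest, median and highest cells were 137, 1479 and 3003 CPM among the Gja5-high and 8.41, 43.4 and 254 CPM among the Gja5-low cells of replicate 2, with some overlap. In replicate 1 they were 0, 869 and 1389 CPM and 0, 38.7 and 2287 CPM, so 1 Gja5-high cell had no count there and the highest Gja5-low cell lay above all 5 Gja5-high cells. The log2 fold change was 3.13 ± 0.46 (SE; edgeR adjusted p = 1.39e-08), and the log2 ratios within the libraries were 2.58 and 3.66. *Efnb2*, the gene of the arterial ligand ephrin-B2 (chromosome 8, 8617434 to 8661242, minus strand), had 700.3 and 450.3 CPM in Gja5-high against 70.5 and 74.2 CPM in Gja5-low cells, a log2 fold change of 3.03 ± 0.60 (SE; edgeR adjusted p = 2.35e-04). All 5 Gja5-high cells of replicate 1 had 390.0 CPM of *Efnb2* or more, against a median of 15.2 CPM and a highest value of 893 CPM among Gja5-low cells. In replicate 2 the Gja5-high cells ranged from 19.6 to 969 CPM (median 477) and the Gja5-low cells from 4.43 to 615 CPM (median 19.0), so the groups overlapped in both libraries. *Efnb2* was called in 18 of 20 other fits. It was not called with thinned cells or with only cells under 20 CPM of *Runx1* (log2 fold change 3.48, edgeR adjusted p = 0.33). *Igfbp3*, whose product binds insulin-like growth factors, had 625 and 357 CPM in Gja5-high against 25.2 and 55.7 CPM in Gja5-low cells, a log2 fold change of 3.71 ± 0.70 (SE; edgeR adjusted p = 6.71e-05). Its log2 ratio was 4.69 in replicate 1 alone and 2.69 in replicate 2 alone. *Igfbp3* was called in 18 of 20 other fits. The exceptions were Gja5-high from 400 CPM and only cells under 20 CPM of *Runx1* (log2 fold change 4.12, edgeR adjusted p = 0.37). *Nrp1*, the co-receptor of VEGF and semaphorins (chromosome 8, 128358604 to 128503363, plus strand), was the most abundant gene of the arterial list, which does not hold *Gja5*, at 1231 and 1516 CPM in Gja5-high against 449 and 431 CPM in Gja5-low cells, with 1.71 ± 0.39 (SE; edgeR adjusted p = 0.0046) on the log2 scale. It was called in 14 of 20 other fits and not without the library term.

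*Sox17*, a SoxF transcription factor of arterial endothelium, had 135 and 418 CPM in Gja5-high against 4.03 and 73.9 CPM in Gja5-low cells, a log2 fold change of 3.76 ± 0.98 (SE; edgeR adjusted p = 0.035) and log2 ratios of 4.87 and 2.51 within the libraries. It was counted in 4 of 5 and 16 of 16 Gja5-high and in 3 of 17 and 11 of 13 Gja5-low cells, at unequal depths. Its call held in 8 of 20 other fits, and not without the library term, with thinned cells or with only cells under 20 CPM of *Runx1*. Over these fits its log2 fold change ran from 2.89 to 4.25, the last with only cells under 20 CPM of *Runx1*. *Tmem100*, a membrane protein gene downstream of BMP receptors, stood at 49.9 and 317 against 0.503 and 4.69 CPM, and was called (edgeR adjusted p = 0.015), with a count in 2 of 5 and 16 of 16 Gja5-high cells and a call in 12 of 20 other fits. With only cells under 20 CPM of *Runx1* it was not called. 8430408G22Rik, now named *Depp1*, had 279.6 and 1008 against 30.2 and 14.7 CPM, a log2 fold change of 4.72 ± 0.68 (SE; edgeR adjusted p = 1.14e-08). In replicate 2, 1 cell held 56.6% of its Gja5-high counts and reached 13522 CPM, beside a median of 172 CPM. In replicate 1 the medians of the groups were 6.87 and 7.01 CPM, so the cells of that library did not separate by it. The gene was called in 18 of 20 other fits, and not with only cells under 20 CPM of *Runx1* (edgeR adjusted p = 0.35) or in limma (adjusted p = 0.28).

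Of 22 arterial genes measured, 7 of 19 tested were called higher and 0 lower, with a median log2 fold change of 1.79 (replicates 1.80 and 2.66) beside -0.29 over all genes tested. Over all 9265 genes tested 35 were called higher (0.378%), 1 was called lower (0.0108%) and 345 had an unadjusted p under 0.05. These stand beside the edgeR counts of each list here and below. The genes that did not pass included *Epas1* at 847 and 573 against 262 and 292 CPM, *Unc5b* at 197 and 282 against 77.0 and 39.3 CPM and *Bmx* at 193 and 67.1 against 59.9 and 24.3 CPM. These had larger values in the Gja5-high sum of each library, at edgeR adjusted p-values of 0.37, 0.89 and 1.0. *Acvrl1*, a BMP receptor gene, had 199 and 202 against 58.4 and 164 CPM and *Mecom* had 190.1 and 258 against 167 and 55.7 CPM. The libraries differed for *Vegfc*, with 155 and 474 against 251 and 75.7 CPM, and for *Tm4sf1*, with 14.6 and 537 against 44.3 and 17.9 CPM. *Gja1*, the connexin gene of many other tissues, had 62.8 and 25.5 against 43.3 and 29.9 CPM. *Cxcr4* (4.30 and 15.0 against 0 and 0.88 CPM), *Cxcl12* (8.60 and 7.52 against 0 and 0.293 CPM), *Dkk2* (0 and 43.4 against 23.7 and 0.587 CPM) and *Sema3g* (0 and 13.0 against 33.2 and 9.39 CPM) were rare. *Efnb1*, *Fbln5* and *Alk* were too rare to be tested, and *Alk* had no count in any sum, which allows at most 0.868 CPM in the deepest sum.

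Promoters are shown for the gene that chose the cells and for 5 called genes, to set beside their values the letters around the start of transcription. The reference sequences are RefSeq's for GRCm38.p6, from 250 bases before to 50 after the start, 5′ to 3′ on the gene's strand, at chr3:97032152-97032451 (*Gja5*, plus), chr4:127313990-127314289 (*Gja4*, minus), chr8:8661193-8661492 (*Efnb2*, minus), chr11:7213874-7214173 (*Igfbp3*, minus), chr13:42301226-42301525 (*Edn1*, plus) and chr6:55336049-55336348 (*Aqp1*, plus). The *Gja5* window lies inside the gene span given above, and the *Aqp1* window ends before the GENCODE M21 start of that gene at 55336432. For these genes the starts used thus differ from the GENCODE gene starts. Capitals mark TGGGAA, the core bound by the Notch partner RBPJ, ACAAT, a core of SOX factors, and CCGGAA, a core of ETS factors, searched on both strands.
Gja5 promoter: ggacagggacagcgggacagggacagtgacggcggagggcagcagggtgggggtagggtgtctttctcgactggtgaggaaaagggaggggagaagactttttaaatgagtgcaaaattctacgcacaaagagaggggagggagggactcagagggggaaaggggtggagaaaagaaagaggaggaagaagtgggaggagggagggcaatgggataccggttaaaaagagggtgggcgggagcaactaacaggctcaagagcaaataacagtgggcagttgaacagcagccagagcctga
Gja4 promoter: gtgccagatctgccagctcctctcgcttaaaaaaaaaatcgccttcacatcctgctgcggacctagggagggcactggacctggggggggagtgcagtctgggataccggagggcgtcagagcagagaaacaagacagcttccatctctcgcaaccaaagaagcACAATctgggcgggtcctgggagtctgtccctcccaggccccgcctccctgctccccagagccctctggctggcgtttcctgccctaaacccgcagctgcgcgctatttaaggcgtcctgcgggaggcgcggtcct
Efnb2 promoter: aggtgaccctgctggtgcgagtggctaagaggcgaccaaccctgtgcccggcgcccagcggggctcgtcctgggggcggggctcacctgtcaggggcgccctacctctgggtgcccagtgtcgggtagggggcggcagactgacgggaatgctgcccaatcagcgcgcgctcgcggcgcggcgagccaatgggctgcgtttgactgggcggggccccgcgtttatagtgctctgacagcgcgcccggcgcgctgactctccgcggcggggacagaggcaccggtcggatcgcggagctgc
Igfbp3 promoter: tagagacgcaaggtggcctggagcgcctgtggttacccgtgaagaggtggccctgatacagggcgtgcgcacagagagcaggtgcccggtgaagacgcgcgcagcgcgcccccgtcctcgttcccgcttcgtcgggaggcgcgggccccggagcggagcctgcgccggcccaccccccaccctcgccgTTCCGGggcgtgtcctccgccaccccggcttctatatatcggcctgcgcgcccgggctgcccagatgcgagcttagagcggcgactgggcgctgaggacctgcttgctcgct
Edn1 promoter: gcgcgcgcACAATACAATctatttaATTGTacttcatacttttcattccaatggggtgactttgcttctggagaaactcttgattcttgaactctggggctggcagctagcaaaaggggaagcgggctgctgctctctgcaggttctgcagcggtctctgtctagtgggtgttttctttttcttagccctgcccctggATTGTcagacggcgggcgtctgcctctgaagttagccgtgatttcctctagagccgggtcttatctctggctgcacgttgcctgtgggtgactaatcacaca
Aqp1 promoter: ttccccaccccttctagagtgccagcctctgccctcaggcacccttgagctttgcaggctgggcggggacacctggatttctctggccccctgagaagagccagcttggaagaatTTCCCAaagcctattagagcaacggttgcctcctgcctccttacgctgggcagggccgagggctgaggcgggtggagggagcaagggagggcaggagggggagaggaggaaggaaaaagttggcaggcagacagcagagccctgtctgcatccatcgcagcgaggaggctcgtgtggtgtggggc
The *Edn1* window held 4 copies of the SOX letters, the *Gja4* window 1 and the *Aqp1* window 1 copy of the RBPJ letters. The *Igfbp3* window held 1 copy of the ETS letters, and none of the motifs was in the *Gja5* and *Efnb2* windows. Promoters were matched for 22 of the 35 genes called higher. The RBPJ letters were in 6 of them (27.3%) and in 25.6% of all 32851 promoters, the SOX letters in 7 (31.8%) and 31%, and the ETS letters in 2 (9.09%) and 14.9%. A match is a description of these letters in the window and not a binding site.

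In the Notch pathway the call fell on a target gene, and no ligand or receptor gene passed in edgeR. *Hey1*, a direct target gene that encodes a transcriptional repressor (chromosome 3, 8663359 to 8667256, minus strand), had 428 and 340.0 CPM in Gja5-high against 13.6 and 4.11 CPM in Gja5-low cells. All 16 Gja5-high cells of replicate 2 had a count, with a lowest, median and highest value of 5.48, 336 and 795 CPM, beside 0, 3.33 and 19.0 CPM in Gja5-low cells. In replicate 1 the Gja5-high values were 0, 2.19 and 836 CPM, and 1 Gja5-low cell reached 846 CPM. The log2 fold change was 5.72 ± 0.88 (SE; edgeR adjusted p = 1.24e-07), with log2 ratios of 4.99 and 6.07 within the libraries. *Hey2* had 8.60 and 66.0 against 0.503 and 0 CPM and did not pass (edgeR adjusted p = 1.0). *Hes1*, a target with other inputs as well, was abundant in every sum (1701 and 1449.9 against 1532 and 794 CPM), and the feedback inhibitor *Nrarp* had 190.1 and 195 against 72.5 and 102 CPM. *Hes5* (0 and 9.84 against 0 and 0 CPM) was too rare to be tested and *Heyl* had no count.

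Among the ligands, *Jag1* had 339 and 154 CPM in Gja5-high against 18.1 and 19.7 CPM in Gja5-low cells. It narrowly missed the threshold at a log2 fold change of 3.66 ± 1.01 (SE; edgeR adjusted p = 0.065), and DESeq2 called it. *Dll4* had 251 and 260.5 against 179 and 79.2 CPM (edgeR adjusted p = 1.0), and its transcripts were found in both groups. *Dll1* (0 and 20.5 against 0 and 12.03 CPM) and *Jag2* (33.6 and 2.89 against 0.503 and 28.2 CPM) were low. The receptor *Notch1* stood at 544 and 498 CPM in Gja5-high against 282 and 108 CPM in Gja5-low cells, a log2 fold change of 1.65 ± 0.55 (SE; edgeR adjusted p = 0.34). *Notch3* had 34.4 and 35.6 CPM in Gja5-high and no count in Gja5-low cells, which allows at most 1.51 and 0.88 CPM there, yet it did not pass (edgeR adjusted p = 1.0). It was counted in 1 of 5 and 5 of 16 Gja5-high cells. *Notch2*, *Lfng* and *Dtx4* were too rare to be tested. The remaining members, *Maml1* (179.8 and 59.6 against 27.2 and 7.63 CPM), *Rbpj* (9.46 and 29.8 against 36.2 and 40.8 CPM), *Mfng* (14.6 and 196 against 98.1 and 131 CPM), *Rfng* (91.2 and 17.4 against 23.1 and 0 CPM), *Adam10* (122 and 183 against 89.1 and 144 CPM) and *Dtx3* (11.2 and 55.3 against 3.52 and 80.7 CPM), did not pass. In all, 1 of 17 tested Notch genes was called higher by edgeR, beside 0.378% of all genes tested, and 0 were called lower. DESeq2 called 3 and 0. Their median log2 fold change was 1.18 (replicates 1.49 and 1.14).

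Values per cell show how far the groups overlapped for the genes that carried the comparison. For *Sdpr*, a gene of caveola coats, the lowest Gja5-high cells had 374 and 71.2 CPM, and the median Gja5-low cells 5.005 and 50.8 CPM. In replicate 1 the highest Gja5-low cell had 378 CPM, just above the lowest Gja5-high cell. In replicate 2 Gja5-low cells reached 909 CPM, so the overlap was wider there. For *Fn1* the ranges overlapped in both libraries, at 92.3, 872 and 2551 CPM (lowest, median, highest) in Gja5-high and 28.1, 269 and 2095 CPM in Gja5-low cells of replicate 1, and 225, 1413 and 4417 and 29.2, 111 and 824 CPM in replicate 2.

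**Figure D3:**
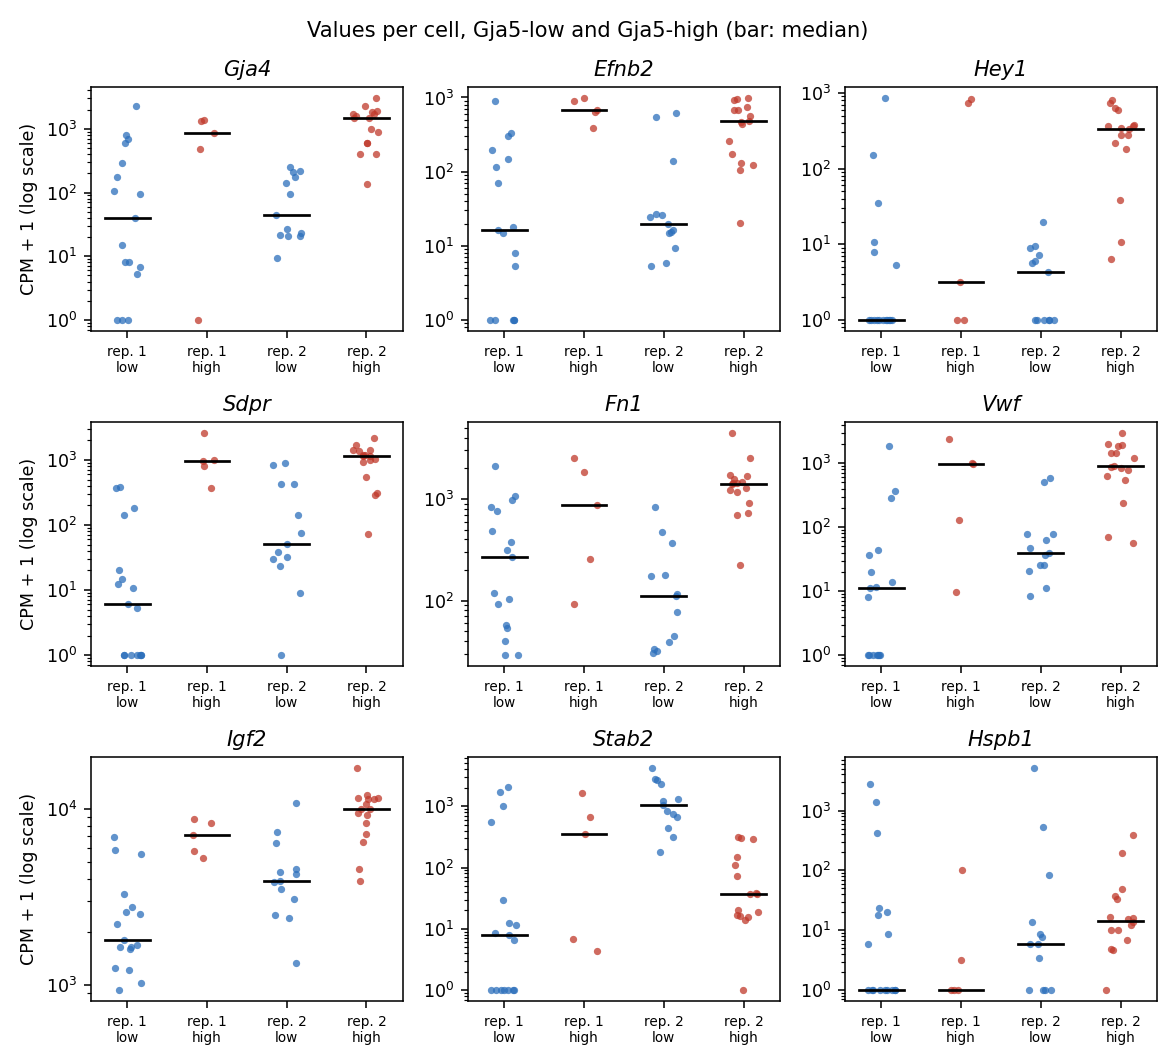
CPM + 1 per cell (log scale) of 9 genes in the Gja5-low (blue) and Gja5-high (red) cells of replicates 1 and 2, with a bar at each median. For Gja4, Efnb2, Sdpr, Fn1, Vwf and Igf2 the Gja5-high median was the higher in both libraries; the medians of Stab2 differed in direction between the libraries, and few cells carried most Hspb1 counts.

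Genes of the vascular basement membrane and matrix were among those called. *Fn1*, which encodes fibronectin (chromosome 1, 71585520 to 71653200, minus strand), had 1535 and 1457 CPM in Gja5-high against 317 and 136 CPM in Gja5-low cells, a log2 fold change of 2.92 ± 0.41 (SE; edgeR adjusted p = 1.14e-08). *Col18a1*, the gene of a basement membrane collagen, had 2352 and 2098 CPM in Gja5-high against 640.1 and 731 CPM in Gja5-low cells and 1.77 ± 0.33 (SE; edgeR adjusted p = 4.20e-05) on the log2 scale. It was called in 19 of 20 other fits, the exception being the fit without the library term. *Sparc* was among the most abundant transcripts at 5212 and 3655 CPM in Gja5-high against 1950.1 and 2392 CPM in Gja5-low cells, with a log2 fold change of 1.09 ± 0.25 (SE; edgeR adjusted p = 0.0073) and log2 ratios of 1.53 and 0.64 within the libraries. Its call held in 9 of 20 other fits and not in DESeq2, without the library term or without the deepest cells, and its lowest log2 fold change over the fits was 0.38. Its relative *Sparcl1* had 1358 and 514 against 133 and 179 CPM, and 1 cell held 96.2% of its Gja5-low counts in replicate 1. The collagen IV genes *Col4a1* (2013 and 2185 against 768 and 1104 CPM) and *Col4a2* (916 and 1376 against 296 and 541 CPM) were called at edgeR adjusted p-values of 0.027 and 0.035. They lie head to head and overlap at their starts on opposite strands, and each was called in 4 of 20 other fits. Of 23 matrix genes tested, 6 were called higher, beside 0.378% of all genes tested, and 0 lower. Their median log2 fold change was 1.09 (replicates 1.497 and 1.01).

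Caveolae are coated pits of the cell membrane that are abundant in endothelium, and their coat gene *Sdpr* held its call, as *Gja4* did, in each fit that was run. *Sdpr*, now *Cavin2* (chromosome 1, 51289126 to 51302960, plus strand), had 810.4 and 1049 CPM in Gja5-high against 26.2 and 189 CPM in Gja5-low cells, a log2 fold change of 3.76 ± 0.54 (SE; edgeR adjusted p = 1.14e-08) with log2 ratios of 5.01 and 2.49 within the libraries. *Ptrf*, now *Cavin1*, the main coat gene, had 278 and 537 against 33.2 and 129 CPM (edgeR adjusted p = 0.042), and *Cald1*, an actin-binding regulator of contraction, 636 and 857 against 103 and 287 CPM (edgeR adjusted p = 0.007). The call of *Ptrf* held in 4 of 20 other fits and that of *Cald1* in 10 of 20. *Vim*, the intermediate filament gene and the most abundant of this list, had 2836 and 2019 against 1653 and 1104 CPM and did not pass (edgeR adjusted p = 0.29). *Tpm4* (754 and 730.4 against 574 and 725 CPM) and *Myl12a* (513 and 976 against 333 and 503 CPM) did not pass. In this cytoskeleton and caveola list 3 of 22 tested genes were called higher, beside 0.378% of all genes tested, and 0 lower. The median was 1.79 (replicates 1.84 and 1.34).

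Of the general endothelial genes, *Vwf* and *Ptprb* were called. *Vwf*, the gene of von Willebrand factor (chromosome 6, 125546774 to 125686679, plus strand), had 702 and 1114 CPM in Gja5-high against 133 and 79.2 CPM in Gja5-low cells, a log2 fold change of 3.18 ± 0.51 (SE; edgeR adjusted p = 6.41e-07). In replicate 1, 1 cell held 85.2% of its Gja5-high counts, and without that cell the gene was not called (edgeR adjusted p = 0.95, the highest over its fits). The phosphatase gene *Ptprb* had 1040.1 and 861 against 297 and 339.7 CPM (edgeR adjusted p = 0.042), a call kept in 3 of 20 other fits. The cadherin gene *Cdh5* (1401 and 1055 against 375 and 662 CPM) did not pass (edgeR adjusted p = 0.11), nor did *Pecam1* (524 and 674 against 154 and 416 CPM), *Tek* (676 and 603 against 257 and 382 CPM), *Cldn5* (859 and 1514 against 594 and 1332 CPM) or *Plvap* (484 and 2103 against 285 and 1286 CPM). *Kdr*, the main VEGF receptor gene, differed in direction between the libraries at 1232 and 727 against 611 and 931 CPM. Of 30 endothelial genes 2 were called higher, beside 0.378% of all genes tested, and 0 lower. Their median log2 fold change was 0.85 (replicates 1.26 and 0.59).

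Flow and signalling lists gave 1 call each. *Edn1*, the gene of the vasoconstrictor endothelin, had 460.3 and 279.8 CPM in Gja5-high against 2.01 and 35.5 CPM in Gja5-low cells, a log2 fold change of 5.19 ± 0.95 (SE; edgeR adjusted p = 3.30e-05) and log2 ratios of 7.37 and 2.97 within the libraries. In replicate 1, 1 cell held 75.1% of its Gja5-high counts, and without that cell *Edn1* was not called (edgeR adjusted p = 0.51, the highest over its fits). It was called in 16 of 20 other fits. The call was also lost without the library term (edgeR adjusted p = 0.059) and with only cells under 20 CPM of *Runx1* (edgeR adjusted p = 0.37). Nor was it called in limma (adjusted p = 0.15). The flow-induced factor *Klf2* had 413 and 468 against 384 and 358 CPM, and did not pass (edgeR adjusted p = 1.0), and *Id1* (211 and 413 against 215 and 508 CPM), *Id3* (541 and 1016 against 269.7 and 589.7 CPM) and *Slc9a3r2* (149 and 521 against 82.0 and 274 CPM) did not pass. The flow list had 1 of 15 tested genes called higher and 0 lower (median 0.72), the junction list 1 of 19 tested and 0 (median 0.63), that gene being *Gja4*, and the VEGF, TGF-beta and BMP list 1 of 24 tested and 0 (median 0.54), that gene being *Nrp1*. *Ctnnb1* (1319 and 735 against 411 and 415 CPM) and *Eng* (499 and 424 against 352 and 321 CPM), abundant members of those lists, did not pass.

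**Figure D4:**
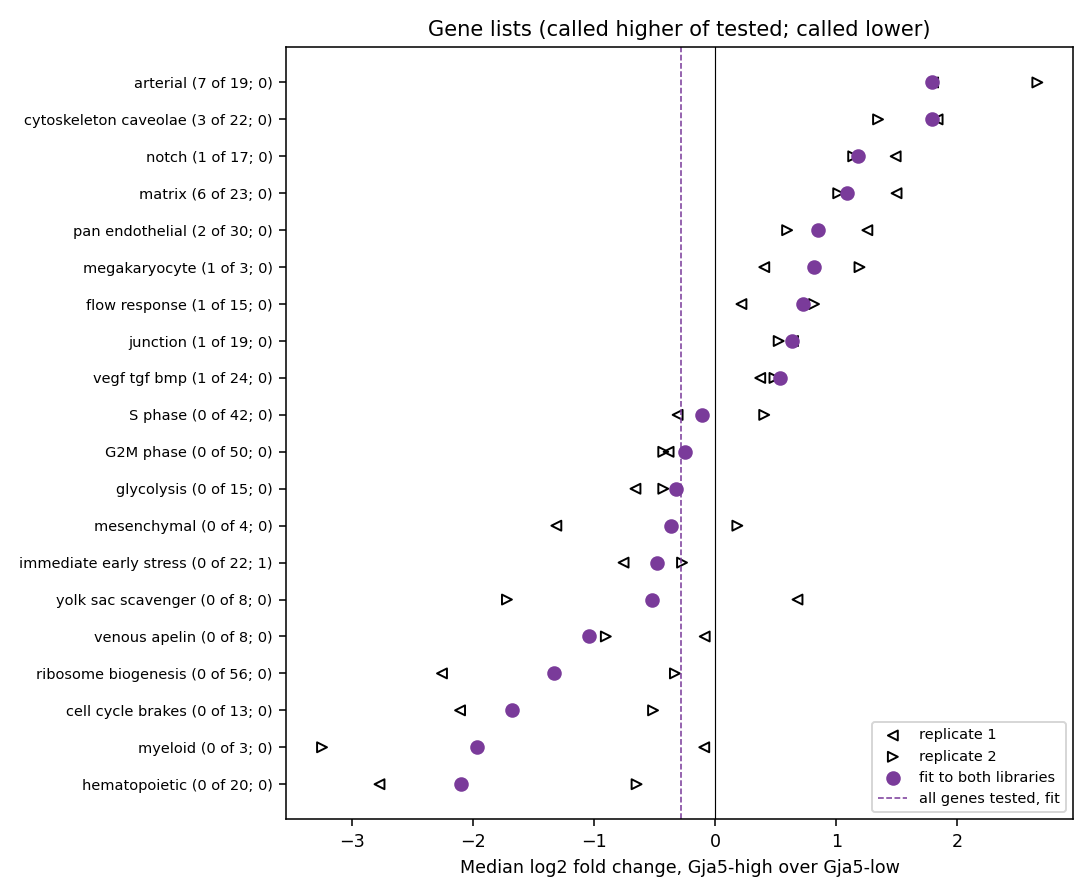
Median log2 fold change (Gja5-high over Gja5-low) of each gene list with 3 or more genes tested, from the fit to both libraries (filled) and within replicates 1 and 2 (open), beside the median of all genes tested (dashed, -0.29); labels give genes called higher of those tested and genes called lower. The arterial and the cytoskeleton and caveola lists stood highest, both at 1.79. The scavenger, S-phase and mesenchymal lists differed in sign between the libraries.

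Among called genes of no list above, the imprinted neighbours *Igf2* and *H19* were the most abundant. *Igf2* (chromosome 7, 142650766 to 142666816, minus strand) encodes a fetal growth factor and had 6996 and 9779 CPM in Gja5-high against 2268 and 4117 CPM in Gja5-low cells, a log2 fold change of 1.51 ± 0.22 (SE; edgeR adjusted p = 1.14e-08). Its Gja5-high cells of replicate 1 ranged from 5237 to 8786 CPM and its Gja5-low cells from 928 to 6911 CPM, so the ranges overlapped although the medians, 7134 and 1794 CPM, were apart. *H19* had 5982 and 8893 against 2757 and 3187 CPM, a log2 fold change of 1.37 ± 0.22 (SE; edgeR adjusted p = 1.03e-06). Neither was called without the library term, where edgeR adjusted p-values were 0.36 and 0.43. The lowest log2 fold changes over the 20 other fits were 1.23 for *Igf2* and 1.02 for *H19*. Within each group, replicate 2 had the larger values of both genes.

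Several called genes were scarce in Gja5-low cells. *Pcsk5*, the gene of a proprotein convertase, had 163 and 355 CPM in Gja5-high against 1.51 and 5.28 CPM in Gja5-low cells (log2 fold change 6.41 ± 1.19 SE, edgeR adjusted p = 5.18e-05), with 1 cell holding 82.0% of the Gja5-high counts of replicate 1. Without that cell *Pcsk5* was not called. *Adgrg6*, an adhesion receptor gene, had 315 and 280.1 CPM in Gja5-high against 0.503 and 12.6 CPM in Gja5-low cells (log2 fold change 6.32 ± 1.12 SE, edgeR adjusted p = 1.58e-05). Here 1 cell held 88.5% of the replicate 1 counts, but in replicate 2 the Gja5-high median was 295 CPM against 4.87 CPM. *Stmn2*, a microtubule regulator, had 346 and 317 CPM in Gja5-high against 16.1 and 4.69 CPM in Gja5-low cells (log2 fold change 5.30 ± 0.94 SE, edgeR adjusted p = 1.58e-05), and *Aqp1*, the water channel of endothelium and red cells, 501 and 404 CPM in Gja5-high against 65.4 and 5.57 CPM in Gja5-low cells (log2 fold change 4.57 ± 0.79 SE, edgeR adjusted p = 6.16e-06). *Aqp1* kept its call with only cells under 20 CPM of *Runx1* (edgeR adjusted p = 0.0013, with a highest of 0.10 over its fits). In that fit *Pcsk5*, *Adgrg6* and *Stmn2* were not called (edgeR adjusted p = 0.38, 0.46 and 0.50). Nor were *Serpinf1*, *Lama3* and *Fbn2*, given next (edgeR adjusted p = 0.79, 0.72 and 0.21). The log2 fold changes of these genes ran from 4.32 to 6.64 there. *Serpinf1*, a secreted inhibitor of vessel growth, had 232 and 405 against 24.7 and 23.8 CPM (edgeR adjusted p = 0.0073). The laminin gene *Lama3* (323 and 80.7 against 0.503 and 9.09 CPM) and the fibrillin gene *Fbn2* (308 and 272 against 106 and 3.52 CPM) passed less firmly, at edgeR adjusted p-values of 0.028 and 0.035, and differed in size between the libraries, with log2 ratios of 7.87 and 3.04 for *Lama3* and 1.64 and 5.93 for *Fbn2*. Each of them was called in 8 of 20 other fits and *Serpinf1* in 15 of 20.

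*Fstl1*, a secreted glycoprotein gene, had 719 and 1080.0 against 162 and 324 CPM (edgeR adjusted p = 0.005), and was called in 14 of 20 other fits. The genes *Sparcl1*, *H19*, *Ptprb*, *Ptrf* and *Cald1* above and those that follow were named after their values were seen. *Sat1* (232 and 787 against 45.8 and 176 CPM) and *Slc6a6* (477 and 551 against 142 and 97.1 CPM) were called at edgeR adjusted p-values of 0.036 and 0.049, and in 7 of 20 and 5 of 20 other fits. *Sox4* (129.9 and 458 against 2.52 and 30.8 CPM), *Timp2* (386 and 93.5 against 0.503 and 20.2 CPM) and *Wfdc1* (222 and 71.2 against 1.01 and 0 CPM) were called too, and in replicate 1 their counts came from 2 of 5, 2 of 5 and 2 of 5 Gja5-high cells. For *Timp2* and *Wfdc1* 1 cell held 99.8% and 99.6% of those counts. *Wfdc1* had 2 and 0 counts in the Gja5-low sums and met the low-count filter only through the Gja5-high sums, so no conclusion is drawn from its call. The calls of *Sox4*, *Timp2* and *Wfdc1* held in 13 of 20, 8 of 20 and 15 of 20 other fits. With Gja5-high taken from 400 CPM the log2 fold change of *Timp2* was -1.83, in the opposite direction.

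In the other direction *Hspb1*, which encodes a small heat shock protein (chromosome 5, 135887919 to 135889563, plus strand), was the only gene called lower in Gja5-high cells, named after its values were seen. It had 25.8 and 24.3 CPM in Gja5-high against 382 and 297 CPM in Gja5-low cells, a log2 fold change of -3.68 ± 0.85 (SE; edgeR adjusted p = 0.006). The call came from few cells, as 1 cell held 85.2% of the Gja5-low counts in replicate 1 and 80.1% in replicate 2. The medians per cell did not follow the sums, at 0 and 13.5 CPM in Gja5-high against 0 and 4.82 CPM in Gja5-low cells. With only cells under 20 CPM of *Runx1* its log2 fold change was 0.55, in the opposite direction (edgeR adjusted p = 1.0, the highest over its fits).

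No other gene passed as lower, and those with the smallest unadjusted p are given as values that did not pass. *Nrp2*, the neuropilin of veins and lymphatics (chromosome 1, 62703285 to 62818695, plus strand), had 2.58 and 14.2 CPM in Gja5-high against 181 and 213 CPM in Gja5-low cells (log2 fold change -4.82 ± 1.34 SE, edgeR adjusted p = 0.066). It was counted in 12 of 13 Gja5-low and 7 of 16 Gja5-high cells of replicate 2, and DESeq2 called it. *Mrpl17*, a mitochondrial ribosomal protein gene, had 7.74 and 245 against 300.4 and 473 CPM (edgeR adjusted p = 0.065), and *Car2*, a carbonic anhydrase gene, 4.30 and 33.3 against 108 and 327 CPM (edgeR adjusted p = 0.15). *Vars* (6.02 and 65.7 against 310.0 and 207 CPM) and *Nop56* (22.4 and 181 against 738 and 193 CPM), genes of tRNA charging and ribosome assembly, had edgeR adjusted p-values of 0.20 and 0.30. *Clec1b*, a lectin receptor gene named after its values were seen, had 24.1 and 3.76 against 179.7 and 285 CPM (edgeR adjusted p = 0.06) and was called lower by DESeq2 and in 5 other edgeR fits. Its unadjusted edgeR p of 2.54e-04 lay below those of *Nrp2* and the other genes of this paragraph. It was outside their limit, with a count in 8 of 17 Gja5-low cells of replicate 1.

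The median of scavenger receptor genes, which are typical of sinusoidal endothelium, differed in direction between the libraries. *Stab2*, a receptor for hyaluronan (chromosome 10, 86841198 to 87008025, minus strand), had 221 and 83.3 CPM in Gja5-high against 274 and 1131 CPM in Gja5-low cells (log2 fold change -1.97 ± 0.60 SE, edgeR adjusted p = 0.17). In replicate 2 every Gja5-low cell had 180.2 CPM or more and the Gja5-high median was 36.1 CPM, with a highest cell of 311 CPM. In replicate 1 the medians ran the other way, 355 CPM in Gja5-high and 7.06 CPM in Gja5-low cells. *Lyve1*, another hyaluronan receptor gene, had 1884 and 547 against 1241 and 2147 CPM, and *Mrc1* 451 and 44.9 against 273 and 405 CPM, with the same contrast between the libraries. *Stab1* had 508 and 401 against 289 and 444 CPM. Of 8 scavenger genes tested 0 were called higher and 0 lower by edgeR (1 at an unadjusted p under 0.05) and 0 by DESeq2, with a median log2 fold change of -0.53 and medians of 0.68 in replicate 1 and -1.72 in replicate 2. The difference between the libraries was not tested. *Stab2* was called lower in 4 other fits, among them those with *Runx1* under 50 CPM and with Gja5-high from 400 CPM, and *Lyve1* was called lower in the last of these.

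Venous genes gave no edgeR call. Besides *Nrp2*, *Aplnr*, the apelin receptor gene of veins, had 116 and 8.10 against 66.9 and 240.0 CPM, *Emcn* 86.9 and 225 against 106 and 202 CPM and *Dab2* 106 and 190.1 against 93.6 and 366 CPM. *Nr2f2*, the defining venous factor, had 78.3 and 0.579 against 17.1 and 48.4 CPM, and was counted in 3 of 17 and 4 of 13 Gja5-low cells, so most Gja5-low cells had no count of this factor. *Flt4* had 0.86 and 75.2 against 51.3 and 144 CPM and *Ephb4* 23.2 and 81.9 against 28.7 and 73.9 CPM. Of the 6 venous markers 1 had both Gja5-high sums below both Gja5-low sums, beside 19.6% of all genes tested. The venous and apelin list had a median log2 fold change of -1.04 (replicates -0.09 and -0.91) over 8 genes tested, with 0 called higher and 0 lower by edgeR, 1 at an unadjusted p under 0.05 and 1 called lower by DESeq2, *Nrp2*.

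Blood genes were tested because *Runx1* was not equal in the groups. Of 20 hematopoietic genes tested 0 were called higher and 0 lower by edgeR, and DESeq2 called 1 lower. In edgeR 4 of them had an unadjusted p under 0.05, beside 345 of all 9265 genes tested. The median log2 fold change was -2.10 (replicates -2.78 and -0.65). *Kit*, the stem cell factor receptor gene of the sort, had 8.60 and 7.81 against 197 and 42.8 CPM (edgeR adjusted p = 1.0). *Adgrg1* (4.30 and 51.5 against 213 and 94.2 CPM) and *Neurl3* (68.8 and 7.81 against 347 and 31.7 CPM), genes of hemogenic endothelium, had smaller values in the Gja5-high sum of each library and did not pass. *Spi1*, the myeloid and lymphoid factor, stood at 1.72 and 18.8 against 150.0 and 1.17 CPM, and 1 Gja5-low cell of replicate 1 held 82.9% of its counts. *Itga2b* (201 and 49.2 against 164 and 21.4 CPM), *Plcg2* (125 and 50.6 against 269 and 80.7 CPM) and *Laptm5* (372 and 71.2 against 218 and 114 CPM) did not pass. The marker gene *Ptprc* had no count and *Spn* nearly none. The other genes of the sort, *Procr* (37.9 and 188 against 369.9 and 145 CPM) and *Cd44* (383 and 290.3 against 311 and 156 CPM), were present in both groups.

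Cell cycle genes gave no call by edgeR, DESeq2 or limma. Of 42 S-phase genes 0 were called higher and 0 lower by edgeR (1 at an unadjusted p under 0.05), with a median of -0.11 (replicates -0.31 and 0.40, of opposite sign) and with *Pcna* at 389.7 and 291 against 199 and 124 CPM, *Mcm6* at 434 and 259 against 362 and 143 CPM, *Nasp* at 662 and 383 against 483 and 294 CPM and *Hells* at 167 and 331 against 446 and 227 CPM. For 50 G2/M genes the counts were 0 and 0 (2 at an unadjusted p under 0.05), with a median of -0.25 and *Top2a* at 675 and 539 against 476 and 746 CPM, *Hmgb2* at 585 and 814 against 612 and 1115 CPM, *Smc4* at 368 and 433 against 405 and 389 CPM and *Cbx5* at 269 and 369.8 against 557 and 399.9 CPM. The median over all genes tested was -0.29. Of 13 cell cycle inhibitors 0 were called higher and 0 lower (1 at an unadjusted p under 0.05), while 12 had a negative log2 fold change, as had 5362 of all 9265 genes, and the median was -1.68 (replicates -2.11 and -0.52). *Cdkn1a* had 18.9 and 57.9 against 169 and 229 CPM, *Cdkn1c* 185 and 280.1 against 222 and 254 CPM, *Btg1* 40.4 and 124 against 74.98 and 191 CPM and *Btg2* 429 and 432 against 330.1 and 632 CPM.

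Ribosome biogenesis genes gave no call by edgeR, DESeq2 or limma, and they are given by their values. Of 56 genes tested 49 had a negative log2 fold change, as had 5362 of all 9265 genes. Calls were 0 lower and 0 higher, and 7 had an unadjusted p under 0.05, beside 345 of all 9265 genes. The median was -1.34, from -2.26 in replicate 1 and -0.33 in replicate 2. Their summed level was 5773 and 5317 CPM in Gja5-high against 15027 and 6531 CPM in Gja5-low cells. *Ncl* had 791 and 713 against 2364 and 986 CPM, *Npm1* 1369 and 849 against 2495 and 845 CPM, *Nop58* 447 and 254 against 461 and 311 CPM and *Nop10* 85.2 and 318 against 503 and 363 CPM. Glycolysis genes gave 0 higher and 0 lower calls among 15 by edgeR and DESeq2 (2 at an unadjusted p under 0.05, median -0.32), with *Aldoa* at 785 and 929.5 against 1079 and 676 CPM, *Gapdh* at 715 and 669 against 832 and 992 CPM, *Pkm* at 756 and 647 against 741 and 904 CPM and *Ldha* at 353 and 718 against 1257 and 989 CPM. Among 22 immediate early and stress genes *Hspb1* was called and the median was -0.48. *Hspa8* (2079 and 1957 against 3358 and 2023 CPM), *Hsp90aa1* (2054 and 1198 against 2799 and 1905 CPM), *Jun* (1215 and 1271 against 1751 and 1895 CPM) and *Hspa1a* (1494 and 795 against 1156 and 1914 CPM), of which the last shares nearly all its sequence with *Hspa1b* and is uncertain, did not pass.

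Markers of other cell types of the yolk sac were mostly low, and their part in the results was not tested. The 10 mesenchymal genes besides *Col1a1* summed to 27.5 and 29.8 CPM in Gja5-high against 126 and 22.3 CPM in Gja5-low cells, with *Col1a2* (15.5 and 12.2 against 59.4 and 5.87 CPM), *Twist1* (0 and 7.81 against 42.8 and 7.92 CPM), *Lum* (5.16 and 2.89 against 9.56 and 2.64 CPM) and *Col3a1* (3.44 and 6.66 against 7.55 and 5.57 CPM) the most abundant and *Pdgfra* at or near 0. The 9 smooth muscle genes summed to 0 and 29.5 CPM in Gja5-high against 3.52 and 0.88 CPM in Gja5-low cells, with *Acta2* at 0 and 24.3 against 3.52 and 0.293 CPM, *Rgs5* at 0 and 4.92 against 0 and 0.587 CPM and *Cnn1* and *Myh11* at 0. The 12 erythroid genes summed to 0 and 0.579 CPM in Gja5-high against 7.55 and 33.2 CPM in Gja5-low cells, from *Epor* (0 and 0.579 against 0 and 32.6 CPM), *Alas2* and the embryonic globin gene *Hbb-y* (0 and 0 against 1.01 and 0.587 CPM), while the globin genes *Hba-x*, *Hba-a1* and *Hbb-bh1* were at 0. For visceral endoderm the 14 genes summed to 137 and 469 CPM in Gja5-high against 27.7 and 197 CPM in Gja5-low cells, most of it *Sox17*, which arterial endothelium also expresses, and *Trf* (1.72 and 31.8 against 23.7 and 104 CPM), while *Apob* was at 0 and *Afp* (0 and 9.26 against 0 and 0.88 CPM) and *Apom* (0 and 0.289 against 0 and 8.21 CPM) were low. The 13 myeloid genes summed to 78.3 and 38.8 CPM in Gja5-high against 159.5 and 274 CPM in Gja5-low cells, with *Fcer1g* (68.8 and 17.4 against 78.5 and 259 CPM), *Lyz2* (1.72 and 0.579 against 51.8 and 14.7 CPM), *Tyrobp* (3.44 and 18.5 against 4.03 and 0.293 CPM) and *Cd68* (1.72 and 0 against 20.1 and 0 CPM) the most abundant. In the megakaryocyte list the genes summed to 903 and 1164 CPM in Gja5-high against 316 and 213 CPM in Gja5-low cells, of which *Vwf*, shared with endothelium, was the largest in Gja5-high cells, *Itga2b* in the Gja5-low cells of replicate 1 and *Pf4* in those of replicate 2. *Pf4* had 0 and 0.289 against 18.6 and 84.2 CPM and *Gp9* 0 and 0.289 against 0 and 28.5 CPM. The 7 mesothelial genes summed to 160.0 and 16.5 CPM in Gja5-high against 44.8 and 34.03 CPM in Gja5-low cells, led by *Krt18* (160.0 and 13.6 against 35.2 and 27.3 CPM), with *Wt1* (0 and 1.74 against 0 and 0 CPM), *Lrrn4* (0 and 0.868 against 6.04 and 5.57 CPM) and *Krt8* (0 and 0.289 against 3.52 and 1.17 CPM) at or near 0. Among these lists *Vwf* and *Sox17* were the genes called by edgeR.

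Genes that correlated with *Gja5* are given as a description over 22 Runx1-low cells of replicate 1 and 29 of replicate 2. The cells of a replicate share a library and differ in depth. They include both Gja5-high and Gja5-low cells, which a gap in *Gja5* separates. A correlation can therefore restate the difference between the groups given above. Whether a gene followed *Gja5* from cell to cell within a group was not tested. Of 4230 genes with a count in 50% of the cells or more, ranked by the lower of the libraries' Spearman correlations of CPM, *Col18a1* stood first (0.70 and 0.78). *Igfbp3* (0.76 and 0.69), *Vwf* (0.67 and 0.77) and *Igf2* (0.67 and 0.66) came next, followed by *Synpo*, *Npr3*, *Efna1*, *Col4a2*, *Efnb2* and *Fstl1*, whose lower values ran from 0.59 to 0.64. Among these, *Npr3*, a natriuretic peptide receptor gene, had 213 and 629 against 158 and 24.9 CPM (edgeR adjusted p = 0.17), *Efna1*, an ephrin gene, 288 and 552 against 110.2 and 159 CPM (edgeR adjusted p = 0.56), and *Synpo*, an actin-linked gene, 22.4 and 81.9 against 21.6 and 3.81 CPM (edgeR adjusted p = 1.0), and these 3 did not pass. *Synpo* was counted in 4 of 5 and 14 of 16 Gja5-high against 2 of 17 and 8 of 13 Gja5-low cells. It met the 50% limit only through the Gja5-high cells, so no conclusion is drawn from its rank.

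*Gja5* from 200 CPM was also found in cells left out for *Runx1*, in 2 of 19 and 2 of 14 Runx1-high cells, against 5 of 22 and 16 of 29 Runx1-low cells. In these 4 cells, beside the Runx1-high Gja5-low cells of their library, *Gja4* had 159 and 621 CPM against 46.6 and 129 CPM, *Nrp1* 1258 and 528 CPM against 236 and 149 CPM and *Col18a1* 818 and 1415 CPM against 464 and 627 CPM. *Hey1* had 206 and 35.5 CPM against 35.2 and 88.6 CPM, *Sdpr* 189 and 125 CPM against 117 and 58.1 CPM and *Efnb2* 66.8 and 402 CPM against 65.3 and 146 CPM. *Hey1* thus had the smaller value beside *Gja5* in replicate 2, and *Efnb2* was level in replicate 1. *Igfbp3* had 0 and 487 CPM against 130.4 and 4.64 CPM, 8430408G22Rik 8.35 and 324 CPM against 183 and 130.3 CPM and *Sat1* 39.0 and 86.4 CPM against 58.3 and 183 CPM. Of the 35 genes called higher in Runx1-low cells, 21 had the larger value in the Gja5-high sum of both libraries, 24 in replicate 1 and 30 in replicate 2, beside 1328 of 9265 genes (14.3%) in both. With 2 cells per sum, whether the differences depend on *Runx1* was not tested.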

How the data were processed

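Modified STRT-seq libraries of yolk sac PK44 cells were analysed in 2 replicates. The authors split reads by cell barcode, trimmed them, aligned them to the mm10 transcriptome with HISAT2 2.1.0, counted uniquely mapped reads with HTSeq and collapsed them by UMI. The values deposited by the authors are UMI counts per gene in each cell and are not normalized. No further filter on depth or genes detected was applied here. Whether counting used strand is not given in the sources used here, so overlapping genes on opposite strands (*Col4a1* and *Col4a2*, *Sdpr* and 9330175M20Rik, *Igf2* and *Igf2os*, *Col18a1* and *Slc19a1*, 8430408G22Rik and *Rassf4*) are uncertain.

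CPM per cell chose the groups. Counts were summed per library and group, filtered with filterByExpr, scaled with TMM and tested in edgeR 4.0.16 (glmQLFit, glmQLFTest) with the library as a term, because the question was asked within libraries and both sums of a library share its preparation, and p-values were adjusted by Benjamini-Hochberg over the 9265 genes tested. *Gja5*, *Runx1* and *Col1a1* were not tested. Log2 ratios within a library used TMM-scaled CPM and a pseudocount of 1 CPM. Alternatives used DESeq2 1.42.0 and limma 3.58.1, other scalings, filters and limits, and were run with R 4.3.3. The fits were tested on simulated data, where at a spread like the common one of these sums edgeR made no call, not even of changed genes, and DESeq2 called changed and unchanged genes, so its calls here may be too many. No doublet caller was run, and 1 of the 51 cells had 5 or more counts each of *Xist* and of Y-linked genes.

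Named genes were the 12 with the largest log2 fold change in each direction among called genes that went the same way in both libraries and had a count in at least 50% of the higher group's cells in each library (31 higher and 0 lower passed, so the 6 lower genes with the smallest unadjusted p among those that met these direction and count limits stand in), the measured members of the arterial and Notch lists, the 4 most abundant of each other list, genes of the sort and of *Cdh5*, *Tek*, *Kdr*, *Lyve1* and *Stab2*, and the 10 genes most correlated with *Gja5*. The members and lists were chosen with earlier results of these data known. Gene positions are from GENCODE M21 on GRCm38, the same assembly as mm10.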

Additional observations from a re-analysis of the deposited data

How the results depend on the processing

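The direction of the called genes held better than the calls. All 35 genes called higher kept a positive log2 fold change in each other fit that tested them, apart from *Timp2* at -1.83 with Gja5-high from 400 CPM, where the cause was not tested. Against 35 higher and 1 lower, edgeR called 12 higher and 0 lower without the replicate block, 13 higher and 1 lower with cells thinned to 20000 counts (1 shallower cell left out), where 5475 genes were tested, and 23 higher and 1 lower with the *Col1a1* cells kept, while DESeq2 called 79 higher and 16 lower. Gja5-high from 100 CPM gave 34 higher and 2 lower, from 400 CPM 28 higher and 5 lower, and from 200 CPM against under 50 CPM 47 higher and 2 lower. Library totals alone gave 25 higher and 2 lower. Alternatives chosen after seeing the data gave 11 higher and 0 lower with *Runx1* under 20 CPM, 17 higher and 0 lower with limma on means over cells of log2(CPM + 10), 27 higher and 3 lower without the deepest cell of each sum, and 17 to 35 higher and 0 to 4 lower when 1 of the 5 Gja5-high cells of replicate 1 was left out. *Hspb1* turned to 0.55 with *Runx1* under 20 CPM. RLE factors, no count filter, *Runx1* under 50 CPM and leaving out the possible doublet moved the higher count by less than 1.5 times. The cause of these differences was not tested. The block is the library itself, from which both sums of a pair come, and it changed calls only by adding or removing them. Without replicate 1 or 2, 1 sum per group is left, so values have no test and no count of calls. With 2 Gja5-high Runx1-high cells per library, the test of dependence on *Runx1* and its alternatives were not run. The 5 Gja5-high cells of replicate 1 limit what depth could show there.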
